A study of Rattus norvegicus with 24 samples.

Results

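Hippocampus and cerebral cortex were compared in the RNA of rats that had received saline. The values came from 8 saline channels, 4 of hippocampus and 4 of cerebral cortex, out of the 24 two-colour arrays of a study of the drug MK-801, an open-channel blocker of the NMDA type of glutamate receptor. On each array 1 colour held saline RNA and the other held RNA of MK-801 rats of the same region, and a channel was taken wherever the labels named saline for that colour. All animals were male Wistar rats aged 10 weeks. The saline group had 3 rats, brains were removed 40 min after an injection into the abdomen, and the hippocampus and cortex were dissected by hand. In each region 2 arrays carried RNA of the high MK-801 dose (0.16 mg per kg) and 2 carried RNA of the low dose (0.08 mg per kg) in the other colour, once with saline in Cy3 and once with saline in Cy5. These pairs are called the high-dose swap and the low-dose swap after the RNA in the other colour, although the RNA described is saline RNA throughout. Channel values are given in the order Cy3 and Cy5 of the high-dose swap, then Cy3 and Cy5 of the low-dose swap.

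The unit is the normalized log2 signal, that is the log2 of the scanner software's background-subtracted intensity after the 8 channels were brought to 1 common distribution, so that a difference of 1 is a 2-fold difference. Which rat or rats supplied the RNA on an array is not stated, nor is pooling, so p-values measure only the spread between hybridisations, which may be technical. Each region lay on its own slide and was scanned on its own day, so region, slide and scan day cannot be told apart. The hippocampal slide had fewer spots above background, while the median signal to background overlapped. That ratio was 2.45 to 3.98 in hippocampal and 2.40 to 5.27 in cortical saline channels. Between 60.9% and 69.6% of spots were well above background in the hippocampal saline channels, against 71.2% to 89.7% in the cortical ones. The 10 probes of the E1A spike-in series on the array gave hippocampus minus cortex differences of -0.12 to 0.86, with a median of 0.39, and their part in the results was not tested. Channels of 1 region correlated at 0.957 or more across genes, and channels of different regions at 0.932 to 0.954. The Cy3 channel of the hippocampal low-dose swap stood apart from the other hippocampal channels on the second principal component.

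The hippocampus is allocortex, a folded sheet with a single layer of principal cells in each field: pyramidal cells in the fields of Ammon's horn and granule cells in the dentate gyrus. The cerebral cortex is for the most part neocortex, with layers whose excitatory neurons are told apart by transcription factors and axon targets. Both hold GABA-releasing interneurons of the same main classes, glia and vessels. The dentate gyrus also keeps making granule cells in adult rats. In bulk tissue, fewer cells of a type and less RNA per cell cannot be told apart, which holds for every difference below.

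Of 25376 genes or transcripts tested, 1491 were called higher in hippocampus, which is 5.88% of those tested, and 1740 were called higher in cortex, which is 6.86%. A gene was called where limma's adjusted p was under 0.05 and the difference was at least 2-fold. With no fold limit 5022 genes passed, which is 19.8%. The median difference over all genes tested was 0.00, and the middle 50% of genes lay between -0.43 and 0.42. Of the called genes, 684 and 750 carried an annotated gene symbol. The 4 hippocampal values did not overlap the 4 cortical values in 1354 of the hippocampal and 1412 of the cortical calls, and such separation was seen in 28.8% of all genes with 8 values. At least 4-fold differences were reached by 224 genes higher in hippocampus and 301 higher in cortex, and 8-fold differences by 55 and 60.

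Read dye for dye, 1470 of the 1491 hippocampal calls were higher in hippocampus both in Cy3 and in Cy5, and 1005 reached 2-fold in each. Among the 1740 cortical calls, 1705 had the same direction in both dyes and 1152 reached 2-fold in each. A call rests on the mean of these same Cy3 and Cy5 values, so agreement between the dyes is in part built in. The sides differed in how well the lower region was measured. Of the hippocampal calls, 325 of 1491 were above background in fewer than all cortical channels. Of the cortical calls, 974 of 1740 were above background in fewer than all hippocampal channels and 389 in none. The hippocampal slide had the smaller share of spots above background throughout. Among genes well above background in all 8 channels, 1101 were called higher in hippocampus and 747 higher in cortex. Scaling each channel by its 75th percentile gave 1157 and 2443 calls, so that 32.1% of calls were hippocampal against 46.1% with quantile normalization. Without the hippocampal low-dose swap 731 and 1067 genes were called, of which 669 and 880 were among the calls above. With normexp background correction the counts were 651 and 668. Of the called genes whose values follow, each kept its call when any 1 of the 4 dye swaps was left out, with normexp, with the mean of all probes of a gene and in the MK-801 channels, wherever that could be tested and unless the text says otherwise. Losses in a single dye or under limma's treat test are not marked gene by gene. Of 164 named called genes, 11 kept their call in Cy3 alone, 120 in Cy5 alone and 95 under treat against 1.5-fold. None changed direction in a single dye.

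**Figure D1:**
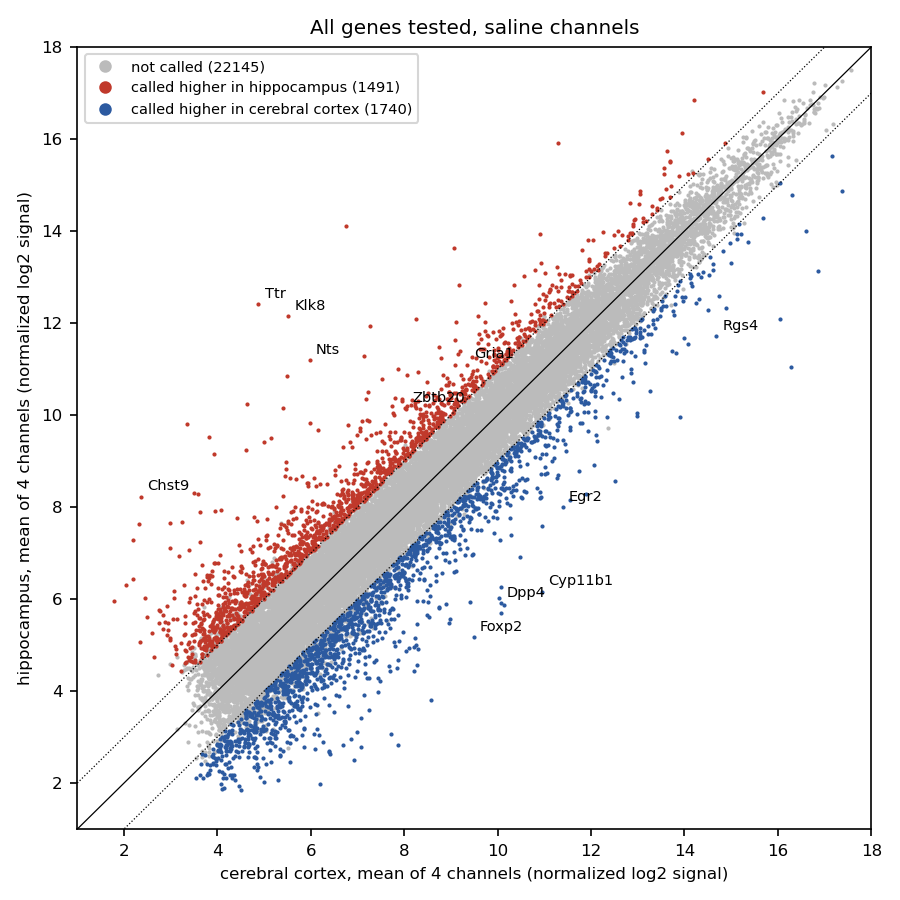
Mean normalized log2 signal of each gene over the 4 cerebral cortex channels (horizontal) and the 4 hippocampus channels (vertical), with genes called higher in hippocampus in red, higher in cortex in blue and not called in grey; dotted lines mark 2-fold differences. Ttr, Klk8 and Chst9 lie farthest above the diagonal among the labelled genes, and Cyp11b1 and Foxp2 farthest below it.

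Klk8, the extracellular serine protease neuropsin, was the clearest hippocampal gene. Its signal was 12.39, 12.13, 12.14 and 11.92 in hippocampus and 5.81, 5.49, 5.25 and 5.52 in cortex. All hippocampal channels were far above all cortical ones, a 98.9-fold difference (6.63 ± 0.20 SE on the log2 scale, adjusted p = 0.0015). Its probe lies on chromosome 1 at 94312016 to 94312075 of rat assembly rn3, the build in the array files.

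Nts encodes the peptide neurotensin. It measured 10.66, 11.87, 11.03 and 11.21 in hippocampus and 6.16, 5.31, 5.98 and 6.46 in cortex, 37.1-fold higher in hippocampus, with 5.34 on the log2 scale from a further probe. Htr5b, a serotonin receptor, was 20.5-fold higher, with more spread. Its hippocampal values were 10.07, 9.66, 8.46 and 9.85 and its cortical ones 5.68, 5.32, 5.75 and 3.86. Cabp7, a neuronal calcium-binding protein, was 23.5-fold higher (4.55 ± 0.17), with 13.46 to 13.85 in hippocampus and 8.76 to 9.31 in cortex. Its further probe gave 4.74.

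Ttr, transthyretin, the thyroid hormone carrier made by the choroid plexus, had the largest difference of the annotated genes above background in all channels. Hippocampal values were 12.24, 12.39, 12.64 and 12.35 and cortical values 4.64, 4.13, 4.47 and 6.27, with the Cy5 channel of the cortical low-dose swap above the other cortical channels. The difference was 7.53 ± 0.35 on the log2 scale (185-fold) in saline RNA and 5.25 in MK-801 RNA, and the other plexus markers are given further on. Lpl, lipoprotein lipase, was 11.4-fold higher and Rerg, a small GTPase of the Ras family, 14.2-fold higher. Others of the 14 largest hippocampal differences were Lrrc10b (40.7-fold), Cfap43, a component of motile cilia (10.2-fold), Kcng2, a modifying subunit of voltage-gated potassium channels (9.71-fold), Misp3 (9.56-fold), Cpne7, a copine that binds membranes in the presence of calcium (8.91-fold), and Tjp3, a tight junction scaffold protein (7.65-fold). For Chst9, a carbohydrate sulfotransferase, no cortical channel was well above background, and the gene was at least 33.0-fold higher in hippocampus. It was the only annotated gene called there that was above background in all 4 hippocampal and in no cortical channel.

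Genes higher in cortex were led by Cyp11b1, the steroid 11-beta-hydroxylase, with 10.60, 10.86, 11.15 and 11.16 in cortex and 5.91, 6.40, 6.63 and 5.72 in hippocampus. The difference was -4.78 ± 0.21, 27.4-fold lower in hippocampus. Cyp11b2, the aldosterone synthase that lies beside it on chromosome 7, was at least 9.15-fold higher in cortex, with no hippocampal channel above background. The 2 genes are close paralogs, so cross-hybridisation between them is possible and which of them was measured is uncertain. Dpp4, a membrane dipeptidase, measured 9.76, 10.26, 10.14 and 10.11 in cortex and 5.48, 5.15, 6.77 and 6.24 in hippocampus, 17.8-fold lower there.

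Several of the cortical genes act in signalling. Adra1b, an alpha-1 adrenergic receptor, was 12.2-fold lower in hippocampus (8.17 to 8.49 against 11.64 to 12.41), while 2 further probes gave smaller differences, -1.17 and -1.18. Rgs4, a GTPase-activating protein that shortens G protein signals, was 7.78-fold lower, with 11.49 to 11.94 against 14.39 to 14.87. Rasgef1c, a guanine nucleotide exchange factor, was 10.2-fold lower. Muscle-type genes were also among the 14 largest, with Trim54, a ubiquitin ligase of muscle, 16.2-fold and Tnnc2, fast skeletal troponin C, 10.5-fold lower in hippocampus. Others were P4ha3, a collagen prolyl hydroxylase (11.8-fold), the transcription factors Egr2 (10.6-fold), Ovol2 (6.81-fold) and Egr1 (5.95-fold), the gastrokine Gkn2 (7.64-fold) and the epoxide hydrolase Ephx4 (5.77-fold). A further probe of P4ha3 gave a smaller difference, -1.87.

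Of the annotated genes called higher in cortex, 146 were well above background in every cortical and no hippocampal channel, against the 1 gene on the hippocampal side. Among all genes tested, called or not, 962 had this pattern for cortex and 5 the reverse, on slides with unlike shares of spots above background. The counts are therefore not read as a trait of the called genes. Of the 146, the 6 with the largest bounds included Cyp11b2, given above. Upk1b, a tetraspanin of the uroplakin family, was at least 6.06-fold higher in cortex and Ostn, the secreted peptide osteocrin, at least 5.09-fold. Slc22a3, an organic cation transporter, was at least 4.85-fold and Cd200r1, the receptor of the CD200 glycoprotein, at least 4.67-fold higher. For these bounds each hippocampal channel took the higher of its own signal and the lowest signal that counted as above background in that channel. The Chst9 bound was set in the same way from the cortical channels. Signals not well above background can exceed that lowest signal, so "at least" holds only under this setting. The lowest signal was smaller in every cortical than in every hippocampal channel, so bounds of the different directions are not on the same scale.

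**Figure D2:**
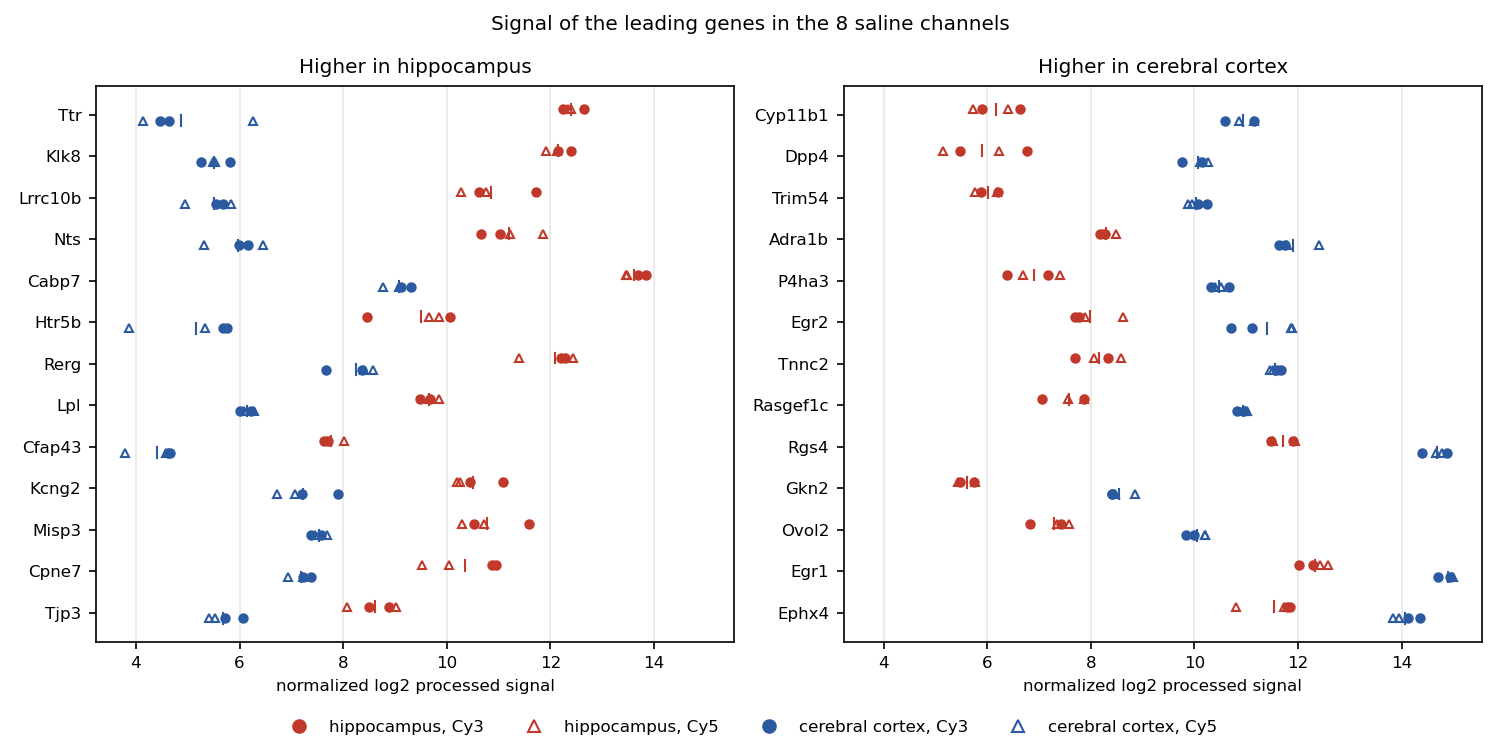
Normalized log2 signal of 13 of the 14 annotated genes with the largest differences in each direction, 1 symbol per saline channel (circles Cy3, triangles Cy5; red hippocampus, blue cerebral cortex), with vertical ticks at the means. No hippocampal channel overlaps a cortical channel in any of the 26 genes, and Ttr has 1 cortical channel at 6.27 above the other 3.

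Markers of the cell fields were read next. Their lists were fixed with earlier results of these data known, so they are no independent check of the labels. Of 25 genes listed for Ammon's horn pyramidal cells, 23 passed the filter on dim probes, 13 were called higher in hippocampus and 1 lower. Their median difference was 1.20, against 0.00 for all genes, and the count was 10 without the hippocampal low-dose swap. Ntf3, the neurotrophin NT-3, measured 8.22, 8.65, 9.49 and 8.32 in hippocampus and 6.17, 6.11, 5.03 and 5.96 in cortex (7.20-fold). Zbtb20, a zinc finger factor known for specifying hippocampal identity, was 4.29-fold higher, with 9.99 to 10.40 against 7.32 to 8.36. Bok, a BCL-2 family protein (4.65-fold), and Necab2, a neuronal calcium-binding protein (4.08-fold), were also higher. Fibcd1, a marker of CA1, was 4.08-fold higher, but that call was lost when either hippocampal swap was left out and with normexp.

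Of 20 genes listed for dentate granule cells 12 passed the filter, and 4 were called higher in hippocampus and none lower. Their median was 0.50 and the lowest difference, not called, was -1.72. Over the mean of probes 4 were called higher and 1 lower. On single channels, without the hippocampal channel that stood apart, 4 were called higher and 2 lower. With normexp 1 was called in each direction. Neurod1, a bHLH factor of granule cells, measured 10.18, 10.05, 10.11 and 9.70 in hippocampus and 7.92, 7.56, 7.71 and 7.91 in cortex (4.71-fold). Desmoplakin, Dsp, was 4.22-fold higher, Dock10, an exchange factor for small GTPases, 3.11-fold and Rfx3, a transcription factor of ciliated cells, by 1.63 on the log2 scale. With normexp these last 3 lost their calls, and Rfx3 also lost it without the hippocampal low-dose swap. The defining granule cell factor Prox1 could not be used, since its probe was well above background in 1 of 4 hippocampal and 0 of 4 cortical channels.

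Neocortical layer genes did not fall on 1 side. Of 19 tested genes of the upper layers, 4 were called higher in cortex and 4 higher in hippocampus, with a median of -0.13. These counts were 3 and 2 without the hippocampal low-dose swap. Cux2, a homeobox factor of layers 2 to 4, was 3.50-fold higher in cortex by its brightest probe (11.12 to 11.68 against 9.36 to 9.72) and not called over the mean of its probes, the other probe giving -0.11. Lamp5, a lysosome-associated membrane protein, was 2.94-fold higher in cortex. On the other side stood Unc5d, a netrin receptor (2.93-fold higher in hippocampus, with 0.65 from a further probe), and the peptide precursor Cartpt (2.77-fold). Kcnip2, a potassium channel-interacting protein (2.89-fold), was there too, but its call was lost without the hippocampal low-dose swap and over the mean of its probes.

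Among 24 tested genes of the deep layers, 6 were called higher in cortex and 1 higher in hippocampus, with a median of -0.04. Foxp2, a forkhead factor of layer 6, had the largest difference of all listed transcription factors. It measured 9.56, 9.55, 9.30 and 9.54 in cortex and 5.21, 5.06, 5.37 and 5.05 in hippocampus, where 2 of 4 channels were well above background (19.9-fold). Ldb2, a LIM domain-binding cofactor, was 3.79-fold higher in cortex and Sulf1, a heparan sulfate sulfatase above background in 2 of 4 hippocampal channels, 3.57-fold. Bcl11b, the factor CTIP2 of subcerebral projection neurons that also marks CA1 and granule cells, ran the other way with 10.95, 10.49, 10.63 and 10.78 in hippocampus and 8.53, 8.65, 8.22 and 8.52 in cortex (4.71-fold). Its further probe gave a smaller difference, 1.26. Fezf2, another layer 5 factor, gave 0.05 (adjusted p = 0.87).

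**Figure D3:**
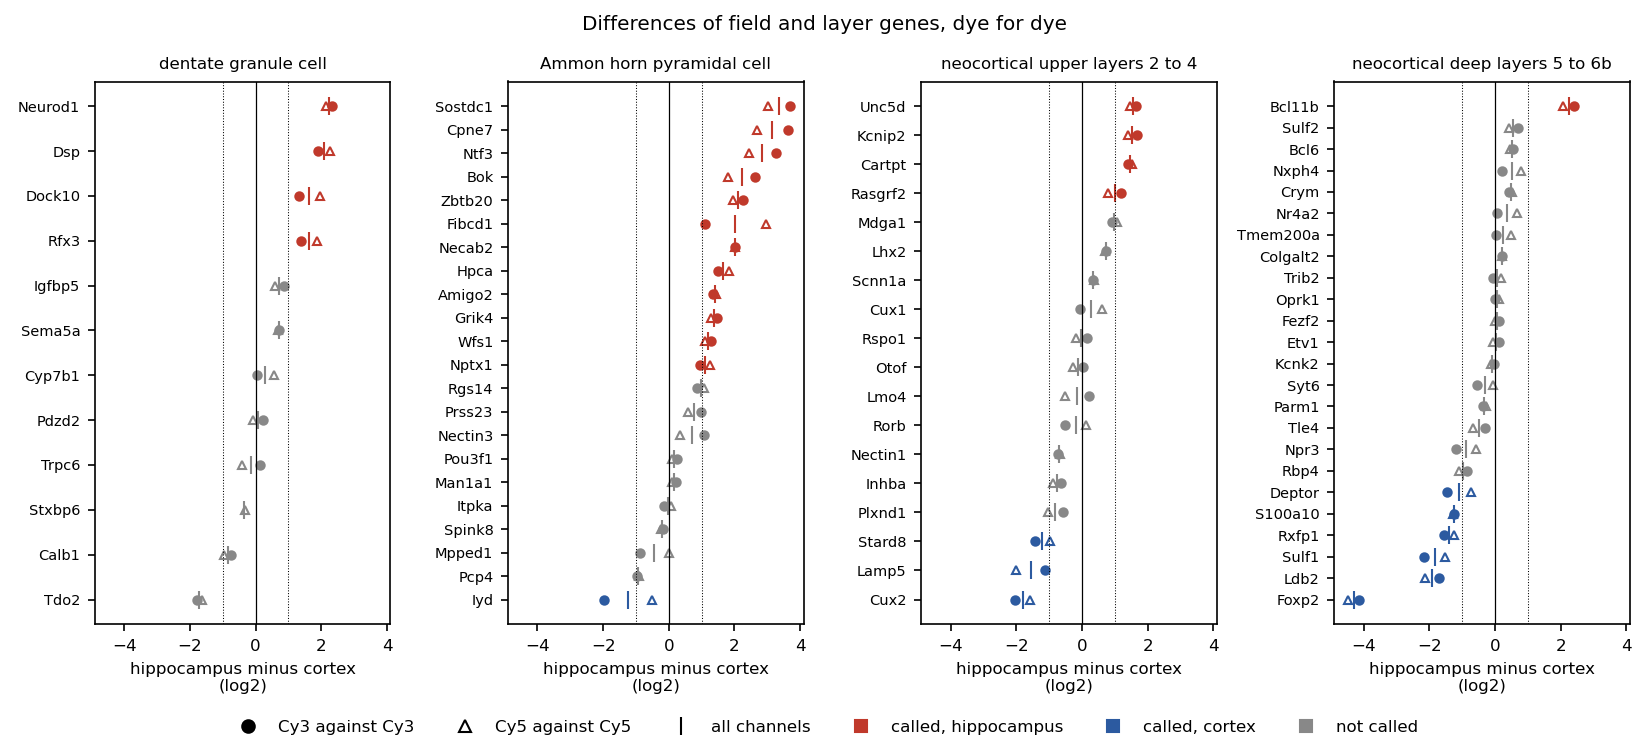
Hippocampus minus cerebral cortex difference (log2) of tested genes in 4 lists of field and layer markers, without 2 genes that are not reported here, computed within Cy3 (circles), within Cy5 (open triangles) and over all channels (ticks), coloured by call. Most Ammon's horn genes lie right of 0 in both dyes, while the layer lists spread over both sides with Foxp2 at -4.31 and Bcl11b at 2.24.

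Transcription factors of the developing and adult telencephalon differed in both directions. Of 71 listed, 59 were tested, 13 were called higher in hippocampus and 9 higher in cortex, with a median of 0.19. Without the hippocampal low-dose swap, and with normexp, 8 and 8 were called. Apart from the factors above, Tshz3, a teashirt zinc finger factor, was 5.43-fold higher in cortex (10.55 to 11.09 against 8.02 to 8.77). Pou3f2, the POU factor BRN2, was 3.95-fold higher in cortex and Meis2, a TALE homeobox factor, 3.87-fold. For both, all cortical channels were above all hippocampal ones.

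Immediate early genes are switched on within minutes of synaptic activity or other stimuli and are read as marks of recent activity. Of 28 tested, 10 were called higher in cortex and none higher in hippocampus, with a median of -0.58. The same count of 10 was had without either hippocampal swap and with normexp. Egr2, a zinc finger factor, measured 10.70, 11.89, 11.12 and 11.87 in cortex and 7.70, 8.62, 7.78 and 7.88 in hippocampus. Egr1, the best known of its family, measured 14.69, 14.98, 14.93 and 14.99 in cortex and 12.28, 12.42, 12.02 and 12.57 in hippocampus, a difference of -2.57 ± 0.17. Fos, a subunit of the AP-1 factor, had 10.00, 9.78, 9.99 and 9.43 in cortex and 8.08, 7.75, 7.18 and 7.74 in hippocampus (4.32-fold). In all 3 genes the regions did not overlap.

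The same direction held for Dusp1, a phosphatase of MAP kinases (4.21-fold), Nr4a1, an orphan nuclear receptor (3.52-fold), Egr4 (3.46-fold), Sik1, a salt-inducible kinase (3.19-fold), Ptgs2, cyclooxygenase 2 (2.47-fold), and Homer1, a postsynaptic scaffold protein with a short activity-induced form (2.32-fold). The other called member was Arc, and the highest difference of the list, not called, was 0.95. Npas4 was not tested, its probe being well above background in 3 of 4 cortical and 0 of 4 hippocampal channels. The rats had been injected 40 min earlier, and the saline animals were the only ones used here.

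Elements known to drive such genes were looked for in the 250 bases before the start of transcription, as RefSeq gives it on assembly GRCr8. These were the CArG box bound by serum response factor, the cAMP response element TGACGTCA, and its core TGACG, on both strands, where the core is also part of the whole element. The CArG box stood in 3 of 20 tested immediate early genes with a promoter entry (15.0%), against 1.5% of all 27457 promoters and 1.2% of those of tested genes, and was found in Egr1, Egr2 and Dusp5. The whole cAMP element stood in 3 of 20 (15.0%), against 1.7% of all promoters and 2.57% of those of tested genes. The core stood in 12 of 20 (60.0%), against 19.0% and 26.3%. Among genes called higher in cortex 2.39% held a CArG box, 2.39% the whole cAMP element and 19.6% the core. Among genes called higher in hippocampus the shares were 1.29%, 1.48% and 20.5%. A match is a description of these letters and not a site in use. The promoters of 3 of the called genes and of Nts follow, the latter for contrast as a gene higher in hippocampus. Matches are in capitals, and each sequence runs 5′ to 3′ on the gene's strand and ends at the base before the start. Egr2 lies on the minus strand of chromosome 20 (chr20:21054442-21054691), Dusp1 on the plus strand of chromosome 10 (chr10:17184603-17184852), Egr4 on the minus strand of chromosome 4 (chr4:119607818-119608067) and Nts on the minus strand of chromosome 7 (chr7:39460889-39461138).
Egr2: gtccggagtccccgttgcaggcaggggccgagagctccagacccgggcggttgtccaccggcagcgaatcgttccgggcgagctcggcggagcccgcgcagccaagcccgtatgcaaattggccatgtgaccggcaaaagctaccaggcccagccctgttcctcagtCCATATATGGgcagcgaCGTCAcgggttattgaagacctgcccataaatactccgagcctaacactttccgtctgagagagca
Dusp1: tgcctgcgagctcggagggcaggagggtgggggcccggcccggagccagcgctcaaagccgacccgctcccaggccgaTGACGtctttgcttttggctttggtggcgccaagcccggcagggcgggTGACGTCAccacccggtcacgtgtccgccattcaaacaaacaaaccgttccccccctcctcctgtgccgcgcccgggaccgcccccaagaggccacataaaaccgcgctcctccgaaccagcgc
Egr4: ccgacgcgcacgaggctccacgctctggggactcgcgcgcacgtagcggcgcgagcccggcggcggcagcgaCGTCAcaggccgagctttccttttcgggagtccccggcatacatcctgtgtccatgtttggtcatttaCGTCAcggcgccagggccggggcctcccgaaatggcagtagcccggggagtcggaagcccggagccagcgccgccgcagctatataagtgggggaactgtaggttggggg
Nts: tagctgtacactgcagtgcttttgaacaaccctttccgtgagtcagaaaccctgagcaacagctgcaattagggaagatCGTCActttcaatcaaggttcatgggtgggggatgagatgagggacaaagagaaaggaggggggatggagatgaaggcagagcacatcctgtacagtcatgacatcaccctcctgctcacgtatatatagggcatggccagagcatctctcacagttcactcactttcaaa
The Egr2 sequence holds a CArG box that begins 83 bases before the start and a cAMP core 66 bases before it. Dusp1 holds a whole cAMP element that begins 124 bases before the start, and Egr4 holds 2 cores. The Nts promoter holds 1 core, 171 bases before the start.

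Of 33 tested interneuron genes, 11 were called higher in cortex and 3 higher in hippocampus, with a median of -0.31, and 6 and 1 were called without the hippocampal low-dose swap. Cort, the peptide cortistatin of a subset of somatostatin cells, measured 12.38, 12.39, 12.48 and 12.62 in cortex and 10.31, 10.39, 10.78 and 10.39 in hippocampus (4.00-fold). Crh, corticotropin-releasing hormone, was 4.09-fold higher in cortex, with 8.89 to 9.30 against 6.69 to 7.36. Vip, vasoactive intestinal peptide of a class of disinhibitory interneurons, was 3.02-fold higher (13.71 to 13.91 against 11.50 to 12.48). Chodl, a marker of long-range somatostatin cells, was 3.21-fold and Tac1, the substance P precursor, 2.81-fold higher in cortex. Sst itself gave a smaller difference, -0.67 ± 0.16, which passed the adjusted p (0.044) but not the 2-fold limit. Dlx1, a homeobox factor of interneuron precursors, was 2.96-fold higher in hippocampus, where the Cy3 channel of the low-dose swap (9.97) stood above the other 3 (9.23 each). Rgs10, a regulator of G protein signalling, was 2.78-fold higher in hippocampus, a call that was lost without that swap.

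Of 29 tested genes of neuropeptides and related secreted proteins, 12 were called higher in cortex and 5 higher in hippocampus, with a median of -0.51. The counts were 7 and 5 and the median 0.11 without the hippocampal low-dose swap. Beside the interneuron peptides, Cbln2, a synapse-organizing cerebellin, was 9.04-fold higher in cortex, with hippocampal values of 5.52, 5.58, 3.44 and 5.18, of which 3 of 4 were well above background, and cortical values of 8.94, 8.43, 7.76 and 7.30. It was not called without the hippocampal low-dose swap. Nxph3, a neurexophilin of deep layers, was 2.78-fold higher in cortex, with 3 of 4 hippocampal channels above background. On the hippocampal side, Nts and Cartpt were joined by Trh, thyrotropin-releasing hormone, 2.90-fold higher with 2 of 4 channels above background in each region. The Trh call was lost without the hippocampal high-dose swap and with normexp.

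Of 24 tested glutamate receptor genes, 3 were called higher in hippocampus and 1 higher in cortex, with a median of 0.15. Among all genes tested 5.88% were called higher in hippocampus and 6.86% higher in cortex. Small counts in this and the later lists were not tested against these shares and are not read as traits of a list. Gria1, the GluA1 subunit of AMPA receptors, measured 11.32, 10.77, 11.49 and 10.81 in hippocampus and 9.43, 9.27, 9.48 and 9.24 in cortex (3.35-fold). Grik4, a kainate receptor subunit of CA3 and granule cells, was 2.58-fold higher in hippocampus and Grm5, a group I metabotropic receptor, 2.46-fold, the latter not called with normexp. Grm8, a presynaptic metabotropic receptor, was 5.62-fold higher in cortex (8.86 to 9.24 against 6.26 to 6.77), and a further probe gave -2.49. None of the tested subunits of the NMDA receptor, the target of MK-801, passed limma's test with the 2-fold limit, and Grin2a gave 0.16 (adjusted p = 0.60).

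GABA receptor subunits were called higher in cortex in 4 of 15 tested genes and higher in hippocampus in 1, with a median of -0.08. Gabra4 was 2.23-fold higher in cortex. Gabrb2 was 2.46-fold higher there with 2 of 4 hippocampal channels above background, and was not called with normexp or without the hippocampal high-dose swap. Gabrb1 was 2.37-fold higher in hippocampus and was not called without the low-dose swap.

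Of 33 tested receptors for monoamines and acetylcholine, 2 were called higher in hippocampus and 7 higher in cortex (4 with normexp), with a median of -0.11. Without the cortical high-dose swap 3 and 7 were called and the median was 0.22, and without the hippocampal high-dose swap 4 and 7 were called. Among serotonin receptors, Htr1a, the inhibitory receptor dense in CA1 and dentate gyrus, measured 7.20, 6.96, 7.50 and 6.94 in hippocampus and 4.83, 4.67, 4.84 and 4.68 in cortex (5.26-fold), beside Htr5b above. Htr2a, the excitatory receptor of cortical pyramidal cells, ran the other way with 8.90, 8.56, 8.83 and 8.47 in cortex and 6.51, 6.35, 6.24 and 6.50 in hippocampus (4.89-fold). Its further probe gave -2.73. Htr1d was at least 2.30-fold and Htr1f at least 1.46-fold higher in cortex, with no hippocampal channel above background and no call for either with normexp. Chrna4, a subunit of the nicotinic receptor with the highest nicotine affinity, was 4.67-fold higher in cortex (9.21 to 9.57 against 6.87 to 7.36). The dopamine receptor Drd1 was at least 2.03-fold higher in cortex and was not called with normexp.

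Of 59 tested potassium channel genes, 12 were called higher in cortex and 5 higher in hippocampus, with a median of -0.38. Without the hippocampal low-dose swap 8 and 2 were called, without the high-dose swap 13 and 3, and with normexp 8 and 4. Kcnb2, a delayed rectifier, was 4.35-fold higher in cortex (9.11 to 9.36 against 6.51 to 7.51). The modifying subunit Kcns1 was 3.46-fold and the sodium-activated channel Kcnt1 3.33-fold higher there. Kcnf1 was 3.62-fold higher in cortex with 2 of 4 hippocampal channels above background, and Hcn4, a pacemaker channel, was above background in 4 cortical and 0 hippocampal channels at a level too low for a bound. Both of these lost their calls with normexp. Higher in hippocampus were Kcng2, given above, Kcnd3, an A-type channel (2.96-fold), and the inward rectifier Kcnj16 (5.04-fold), which was above background in 3 of 4 cortical channels and was not called when either hippocampal swap was left out.

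Sodium and calcium channel genes gave 2 calls for hippocampus and 3 for cortex among 28 tested, with a median of 0.23. Cacng8, an AMPA receptor auxiliary subunit that is abundant in hippocampus, was 3.01-fold higher there (8.98 to 10.20 against 7.61 to 8.19). Scn4b, a sodium channel beta subunit, was 2.35-fold and Scn1a 2.03-fold higher in cortex, and neither was called when either hippocampal swap was left out, nor Scn1a without the cortical high-dose swap.

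Calcium and kinase signalling genes gave 9 calls for hippocampus and 6 for cortex among 55 tested, with a median of 0.01. The counts were 3 and 3 without the hippocampal low-dose swap, 4 and 5 without the cortical low-dose swap and 5 and 7 with normexp. Prkce, the epsilon isoform of protein kinase C, was 3.91-fold higher in hippocampus (11.43 to 12.26 against 9.61 to 9.94) with 1.74 and 1.45 from 2 further probes. Ryr3, an intracellular calcium release channel, was 4.49-fold higher, with 0.98 from a further probe. The Homer scaffold proteins went different ways, with Homer3 3.51-fold and Homer2 2.25-fold higher in hippocampus and Homer1 higher in cortex as given above. Homer2 and Homer3 were not called without the hippocampal low-dose swap, nor Homer3 without the high-dose swap. Rgs4 had the largest difference of the list, and its relative Rgs7 was 2.62-fold higher in cortex, a call lost without the hippocampal low-dose swap.

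Of 17 tested genes of steroid signalling, 2 were called higher in hippocampus and 1 higher in cortex, with a median of -0.07. Nr3c2, the mineralocorticoid receptor, measured 12.69, 13.35 and 12.87 in 3 hippocampal channels, the fourth spot being an outlier that was left out, and 10.13, 10.53, 10.74 and 10.85 in cortex. Since a swap lacking a channel gave no value, the hippocampal side of the difference rests on the high-dose swap alone. The difference was 5.49-fold (2.46 on the log2 scale), and a further probe gave 2.07. The gene was not called over the mean of its probes, where a channel lacking a spot rests on the other probe. Nr3c1, the glucocorticoid receptor, gave -0.24 (adjusted p = 0.43). It was 10.91 to 11.89 in hippocampus and 11.24 to 11.65 in cortex, so that the regions overlapped.

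Neurotrophins and other growth factors gave 9 calls for hippocampus and 6 for cortex among 43 tested, with a median of -0.02. Without the hippocampal low-dose swap the counts were 5 and 3, without the hippocampal high-dose swap 6 and 3 and without the cortical high-dose swap 8 and 3. Beside Ntf3, genes called higher in hippocampus included Wnt4, a secreted WNT ligand (4.27-fold, 11.59 to 12.10 against 9.56 to 9.98), and Gdf10, a BMP-like factor (4.06-fold, 10.70 to 11.05 against 8.65 to 9.12). The receptor Fgfr1 was 3.94-fold higher in hippocampus by its brightest probe, but a further probe gave -1.21, and the gene was not called over their mean. Igfbp4, a binding protein for insulin-like growth factors, was 4.71-fold higher in cortex (12.43 to 12.76 against 10.26 to 10.44), with -1.08 from a further probe. Nrg1, neuregulin 1, was 3.84-fold higher in cortex with 3 of 4 hippocampal channels above background, and was not called when either hippocampal swap was left out. A further Nrg1 probe gave -0.97.

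Of 66 tested axon guidance and adhesion genes, 15 were called higher in hippocampus and 7 higher in cortex, with a median of 0.40. Without the hippocampal low-dose swap 7 and 4 were called, and with normexp 11 and 4. Epha6, an ephrin receptor, measured 9.52, 8.76, 9.32 and 9.66 in hippocampus and 6.17, 7.04, 6.84 and 6.70 in cortex (6.18-fold). Icam5, telencephalin, an adhesion molecule of excitatory dendrites, was 5.50-fold higher (9.76 to 10.50 against 7.56 to 7.91), with 1.23 from a further probe. Tenm4, a teneurin, was 2.81-fold higher, with 0.71 from a further probe. Efnb1, an ephrin ligand, was 5.63-fold higher in cortex (9.67 to 10.19 against 6.80 to 7.80) and Cdh6, a cadherin, 3.27-fold. The secreted semaphorin Sema3c was 2.84-fold higher in cortex, with -0.56 from a further probe, and was not called with normexp.

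Genes of newborn and immature neurons were called higher in hippocampus in 6 of 20 tested genes and higher in cortex in 1, with a median of 0.38. The counts were 3 and 1 without the hippocampal high-dose swap and 2 and 2 with normexp. Igfbpl1, a secreted IGF-binding protein-like factor of young neurons, was 5.79-fold higher in hippocampus (6.84 to 7.25 against 4.00 to 5.18). Bhlhe22, a bHLH factor, was 3.24-fold higher by its brightest probe and not called over the mean of its probes, the other one giving 0.04. Sox2, a factor of neural stem cells and astrocytes, was 2.60-fold higher, with no call under normexp. Dcx, doublecortin of migrating neurons, was 2.05-fold higher, and this call was lost with normexp, in the MK-801 channels and without any of 3 dye swaps. Hopx, which marks stem cells and astrocytes, was 2.74-fold higher in cortex.

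Among glial genes, of 20 tested oligodendrocyte genes 5 were called higher in hippocampus and none lower, with a median of 0.66 and a lowest difference of 0.03. The count was 2 without the hippocampal low-dose swap, 2 without the cortical high-dose swap and 2 when the hippocampal channel that stood apart was left out. Mbp, myelin basic protein, measured 15.34, 14.53, 15.19 and 14.19 in hippocampus and 13.17, 12.91, 13.16 and 12.97 in cortex (3.39-fold). Mobp, another myelin protein, was 3.30-fold higher, with 1.12 and 0.65 from further probes. Of 16 astrocyte genes 4 were called higher in hippocampus and none lower, with a median of 0.54. Agt, angiotensinogen, was 3.45-fold higher (13.51 to 13.73 against 11.76 to 11.87), Gfap, the astrocyte filament protein, 3.17-fold and S100b, a calcium-binding protein, 2.46-fold. Of 14 microglial genes 1 was called, Csf1r at 2.36-fold, and its further probe gave -0.21 so that the mean of its probes was not called. The spike-in probes, which hold no brain RNA, had a median of 0.39 in the same direction, and the part of the slide in these differences was not tested.

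Markers of tissue that can be carried over in a dissection were read in the same way. Among 10 tested genes of the choroid plexus, 2 were called higher in hippocampus and 2 higher in cortex, with a median of 0.50 in saline and -0.11 in MK-801 RNA. The mean level of the list, which includes the large difference of Ttr, was 6.80 to 7.20 in hippocampal and 5.67 to 6.14 in cortical channels. The 2 hippocampal calls were Ttr and Sostdc1, a secreted BMP and WNT antagonist that is also on the Ammon's horn list. Sostdc1 measured 8.99, 8.68, 8.25 and 9.36 in hippocampus and 3.95, 6.24, 5.90 and 5.77 in cortex, where 3 of 4 channels were well above background, a difference of 3.35, against 0.45 in MK-801 RNA, where it was not called. Folr1, a folate receptor of the plexus, gave 0.63 in saline and 0.01 in MK-801 RNA, and Clic6, a chloride channel protein, 0.90 and -0.39. Kcne2, a potassium channel subunit of the plexus, gave 0.33 and was above background in no hippocampal channel, and the water channel Aqp1 was 2.03-fold higher in cortex, a call lost with normexp and when the low-dose swap of either region was left out. The other cortical call was Prlr, the prolactin receptor, with no hippocampal channel above background and a level too low for a bound, a call lost with normexp and without the high-dose swap of either region. Kl was well above background in 1 of 8 channels. The part of plexus tissue in the Ttr and Sostdc1 differences was not tested.

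Of 6 tested genes of ependymal cilia 1 was called, Foxj1, the master factor of motile cilia, 4.41-fold higher in hippocampus (9.95 to 10.60 against 7.64 to 8.51), and not called without the hippocampal low-dose swap. The mean level of this list was 8.50 to 8.78 in hippocampus and 8.21 to 8.53 in cortex. Of 12 meningeal fibroblast genes 4 were called higher in cortex and none higher in hippocampus, with a median of -0.74, and 2 were called in MK-801 RNA. Their mean level was 9.31 to 9.49 in hippocampal and 10.02 to 10.20 in cortical channels. Aldh1a2, the retinoic acid-making enzyme of the meninges, was 7.07-fold higher in cortex, where hippocampal values of 6.10, 5.99, 3.57 and 6.13 included 3 channels well above background. The collagen gene Col3a1 was 2.53-fold higher in cortex. Of 15 endothelial and pericyte genes 1 was called, the transporter Abcb1a, 2.30-fold higher in cortex and not called with normexp. Of 4 blood genes Ahsp, a hemoglobin-binding protein of red cells, was called, 2.96-fold higher in cortex.

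Of 13 tested striatal genes 5 were called higher in cortex (3 without the hippocampal low-dose swap) and none higher in hippocampus, with a mean level of 8.04 to 8.28 in hippocampal and 8.74 to 8.94 in cortical channels. These included Drd1, Tac1, Scn4b and Penk, the enkephalin precursor (2.33-fold, lost without the hippocampal low-dose swap). The median difference of the striatal list was -0.19, against 0.00 for all genes. Ppp1r1b, the striatal phosphoprotein DARPP-32, gave 0.31 (adjusted p = 0.30). Of 7 thalamic genes 2 were called higher in hippocampus and 1 higher in cortex. Slc17a6, the vesicular glutamate transporter VGLUT2, measured 9.89, 10.01, 9.80 and 10.05 in hippocampus and 8.19, 8.30, 8.36 and 8.45 in cortex (3.06-fold). Ramp3, a receptor activity-modifying protein, was 3.35-fold higher in cortex. Pan-neuronal genes gave 2 calls in each direction among 21 tested, with a median of 0.03. Gap43, a growth cone protein, was 2.64-fold higher in cortex (15.63 to 15.71 against 14.12 to 14.40). What part neighbouring tissue had in any of these differences was not tested.

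**Figure D4:**
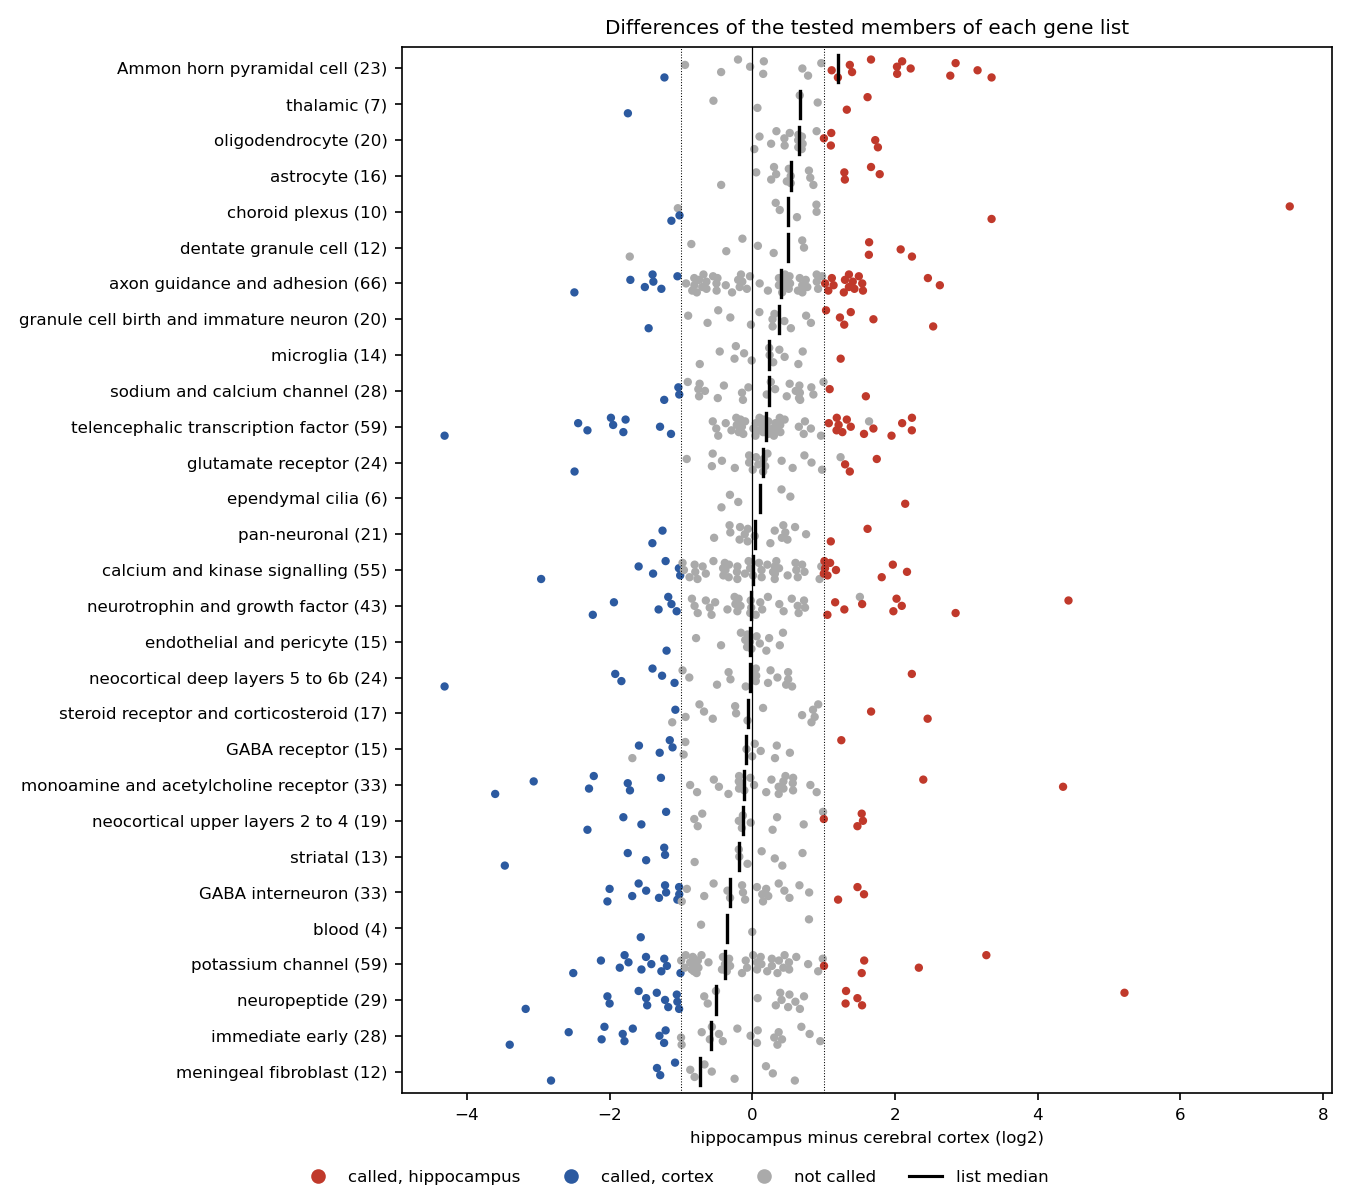
Hippocampus minus cerebral cortex difference (log2) of every tested gene in each of the 29 gene lists, 1 dot per gene, coloured by call, with black bars at the list medians and the number of tested genes in parentheses. The Ammon's horn list has the highest median, 1.20, and the meningeal list the lowest, -0.74; the immediate early list has 10 genes called higher in cortex and none higher in hippocampus.

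The other channel of the same 8 arrays held RNA of MK-801 rats, so the regional difference could be read in other animals on the same slides. Both RNAs share slide and scan day, and the processed signals were dye-normalized. Agreement between the RNAs is therefore in part built in and does not separate region from slide. In these channels 1520 genes were called higher in hippocampus and 1702 higher in cortex, and 1291 and 1368 of them were among the saline calls. All but 1 of the 1491 hippocampal saline calls, and 1732 of the 1740 cortical ones, had the same direction in MK-801 RNA. Of the saline calls, 1356 and 1562 were at least 2-fold there too. Klk8 differed by 6.63 in saline and 6.53 in MK-801 RNA, Nts by 5.22 and 5.19, Cyp11b1 by -4.78 and -4.69 and Egr1 by -2.57 and -2.56. Ttr, at 7.53 and 5.25, and Sostdc1 differed most between the RNAs among the leading and listed genes.

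**Figure D5:**
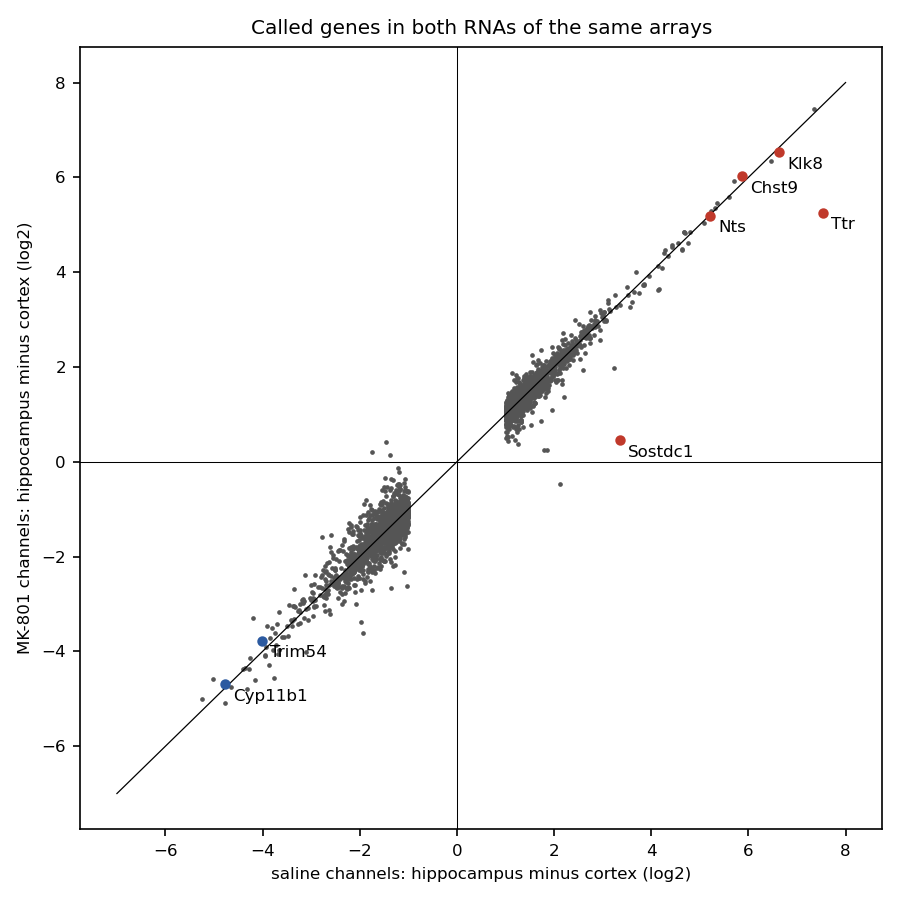
Hippocampus minus cerebral cortex difference (log2) of the called genes in the saline channels (horizontal) and in the MK-801 channels of the same arrays (vertical), 1 dot per gene, with the line of equal values. Most genes lie close to the line; Ttr lies at 7.53 and 5.25 and Sostdc1 at 3.35 and 0.45.

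A chromosome on assembly rn3 was given for 24003 of the tested genes, of which 5.84% were called higher in hippocampus and 6.82% higher in cortex. The hippocampal share ran from 4.64% on chromosome 2 to 7.93% on chromosome 13. The cortical share ran from 2.90% on chromosome 19, where 20 of 689 genes were called, to 8.86% on chromosome 9, where 79 of 892 were. More hippocampal than cortical calls lay on chromosomes 10 (127 against 114), 13 (59 against 55), 19 (49 against 20) and 20 (48 against 28). These shares are descriptions, and no test between chromosomes was made.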

How the data were processed

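The 8 arrays were scanned with Agilent Feature Extraction 9.5.3.1, and per the file headers the deposited files hold spot intensities per colour as mean, background and processed signal, the last after background subtraction and dye normalization, with probe positions on rn3. From these, log2 processed signals of the saline channels were quantile-normalized over 8 channels and 41012 probes. Control spots and spots flagged as outliers were left out. A probe had to be well above background in at least 4 of 8 channels, and a gene was its brightest probe. The 2 channels of a dye swap were averaged into 1 value, leaving 2 values per region, which were compared with limma 3.58.1 (lmFit and eBayes) in R 4.3.3 with Benjamini-Hochberg adjustment over all genes. The fit across all genes was tested on simulated data. These held no slide or scan-day effect, so that test does not bear on telling region from slide. Of the genes tested, 664 lacked a channel, and a swap that lacked a channel gave no value. The number of hybridisations limits the precision.

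Probes were named through RefSeq's gene table of GRCr8, used for names only. Named genes were the 14 annotated genes with the largest difference per direction among those above background in all 8 channels, the 6 with the largest bounds among genes measured in 1 region only, up to 8 called members of each of 29 gene lists, and 8 uncalled members. The members and lists were chosen with earlier results of these data known. Lists are described by counts and medians. Mean list levels average the normalized log2 signal of the tested members per channel. Alternatives covered background correction, normalization, filter, dye, replication unit, left-out swaps, probe choice, variance prior, test, fold limit and RNA. The other 16 arrays and the deposited value table were not used here. Some genes that the rule would name are not reported here.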

Additional observations from a re-analysis of the deposited data

Results flagged for a closer look

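In 18 of 342 groups of 4 channels, 1 channel of a named gene lay far from the other 3 by Dixon's criterion, a share close to the 1 in 20 groups that chance gives. In cerebral cortex, the Cy3 channel of the high-dose swap stood apart for Cux2 (11.68, nearest 11.16), Gabrr2 (5.07, nearest 6.26) and Tenm4 (8.26, nearest 8.07). In cerebral cortex, the Cy5 channel of the high-dose swap stood apart for Cfap43 (3.79, nearest 4.59) and Hcn4 (3.75, nearest 4.66). In cerebral cortex, the Cy3 channel of the low-dose swap stood apart for Foxp2 (9.30, nearest 9.54). In cerebral cortex, the Cy5 channel of the low-dose swap stood apart for Gkn2 (8.85, nearest 8.48), Bhlhe22 (10.08, nearest 9.92) and Col3a1 (11.05, nearest 10.69). In hippocampus, the Cy3 channel of the high-dose swap stood apart for Homer1 (10.36, nearest 10.50). In hippocampus, the Cy5 channel of the high-dose swap stood apart for Ephx4 (10.80, nearest 11.73), Meis2 (7.75, nearest 8.50), Kcnt1 (7.01, nearest 7.40) and Ramp3 (7.63, nearest 7.92). In hippocampus, the Cy3 channel of the low-dose swap stood apart for Dlx1 (9.97, nearest 9.23) and Aldh1a2 (3.57, nearest 5.99). In hippocampus, the Cy5 channel of the low-dose swap stood apart for Cux2 (9.72, nearest 9.41) and Lef1 (5.88, nearest 6.10). The call of Gabrr2 was lost with normexp, over the mean of its probes and without any 1 of 3 dye swaps, and that of Lef1 with normexp. Values are normalized log2 signals, each with that of the nearest other channel of the region.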

How the results depend on the processing

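Hippocampal, cortical and adjusted-p-only counts (1491, 1740 and 5022) stayed within 1.5 times under quantile normalization within each dye, 8 channels with dye as covariate, the mean of probes and the MK-801 channels, and, chosen after seeing the data, without the Cy3 channel of the hippocampal low-dose swap (1457, 1590 and 5298). Normexp gave 651, 668 and 2749 and treat against 1.5-fold 391, 436 and 827. Cy3 alone gave 18, 15 and 33, Cy5 alone 743, 722 and 1465. Without a filter 2883 genes passed the adjusted p, and with all 8 channels above background 807 were cortical and 59.0% of calls hippocampal. Leaving out 1 dye swap gave 731 to 1446, 1067 to 1724 and 1798 to 3170, lowest without the hippocampal low-dose swap. A 1.5-fold limit gave 2492 and 2530, a 4-fold limit 224 and 301. Deviations of same-numbered channels from their region's mean correlated at -0.0077 to 0.10, and those of differently numbered channels at -0.13 to 0.13. With so few channels, and with pooling not stated, this cannot decide whether the numbers pair the samples. With the replicate block the counts were 1459, 1607 and 4787 on 8 channels and 1582, 1995 and 5515 on averaged swaps. Of 164 named called genes, 129 kept their call with normexp, 161 with 75th percentile scaling, 133 without the hippocampal low-dose swap, 95 with treat and 157 in MK-801 RNA. Only Tspan2 changed direction, to -0.028 over the mean of its probes. Its brightest probe was called higher in hippocampus and the other gave 0.32, so neither probe alone was lower there. That mean uses the probes present in each channel, so a missing spot can change which probes enter it. The Tspan2 call was also lost without the hippocampal low-dose swap and in MK-801 RNA. The cause of these changes was not tested. In 389 cortical calls no hippocampal channel was well above background, so their size is not measured.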
